A study of Mus musculus with 12 samples.

Results

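Macrophages and other myeloid cells of the kidney were followed through 38 genes. The set was a list of gene symbols, and every symbol was found in the deposited count table. The 38 genes were thus 38 of 24062 genes, and all 38 were among the 14970 genes with enough reads to be tested. Measured was RNA from kidneys of 12 adult mice of a Pkd1 model of polycystic kidney disease, each giving 1 library, in 4 groups of 3. All mice had been induced with tamoxifen, were 6 to 8 weeks old, and were sampled 4 weeks after surgery. CrePlus mice carried Cre and CreMinus mice did not, and each had either a sham operation, after which both kidneys remained, or a unilateral nephrectomy (UNx), in which 1 kidney was removed. The labels do not name the promoter that drives Cre, the cells in which it acts or the deleted stretch of Pkd1, so the cell type that lost the gene cannot be named here.

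Resident macrophages line the tubules and vessels of the kidney and live on signalling through CSF1R, whose ligands are CSF1 and interleukin-34. Monocytes that enter from blood through CCR2 can add to them after injury, and both kinds clear dying cells and immune complexes with scavenger receptors, Fc gamma receptors and complement C1q. Many of these receptors have no signalling tail of their own and use the adaptors DAP12 (gene Tyrobp) and the Fc receptor gamma chain (gene Fcer1g), whose ITAM motifs recruit the kinase SYK. Macrophages are known to gather around cysts in polycystic kidneys.

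The letters before the start of some members are shown first, because PU.1, the product of the member Spi1, is a transcription factor that many genes of this kind share. Of the 38 members, 28 matched an entry of the RefSeq promoter table (build GRCm38.p6), with 33 start sites; the other 10 were Emr1, Csf1r, C1qa, Cd14, Tyrobp, Cd86, Msr1, Itgb2, Spi1 and Cd52. The promoters of 6 members are printed as the 250 bases before the start, 5′ to 3′ on the strand of the gene. Ctss, Trem2 and C1qb were the members with an entry and the smallest p among those higher in every UNx CrePlus library than in every UNx CreMinus library. Fcgr2b, Mertk and Cd163 were the members with an entry and the lowest fold change in that comparison. Capitals mark GAGGAA, the core letters of PU.1 sites, or its complement TTCCTC.
Ctss, chr3:95526536-95526785, plus strand: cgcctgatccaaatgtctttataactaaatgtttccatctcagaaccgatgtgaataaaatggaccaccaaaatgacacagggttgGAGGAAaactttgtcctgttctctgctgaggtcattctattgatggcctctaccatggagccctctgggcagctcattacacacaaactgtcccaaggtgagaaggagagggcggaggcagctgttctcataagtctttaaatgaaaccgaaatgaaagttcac
Trem2, chr17:48346151-48346400, plus strand: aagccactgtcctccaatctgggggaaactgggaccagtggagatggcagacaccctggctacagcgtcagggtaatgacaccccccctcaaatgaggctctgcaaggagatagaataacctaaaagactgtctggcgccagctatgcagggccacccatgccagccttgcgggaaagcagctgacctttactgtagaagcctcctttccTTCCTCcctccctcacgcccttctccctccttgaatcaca
C1qb, chr4:136886201-136886450, minus strand: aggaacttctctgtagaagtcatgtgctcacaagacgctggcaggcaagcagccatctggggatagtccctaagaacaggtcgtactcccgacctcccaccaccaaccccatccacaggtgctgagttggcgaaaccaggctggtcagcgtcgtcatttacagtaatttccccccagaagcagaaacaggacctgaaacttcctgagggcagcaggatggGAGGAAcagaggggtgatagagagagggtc
Fcgr2b, chr1:170976072-170976321, minus strand: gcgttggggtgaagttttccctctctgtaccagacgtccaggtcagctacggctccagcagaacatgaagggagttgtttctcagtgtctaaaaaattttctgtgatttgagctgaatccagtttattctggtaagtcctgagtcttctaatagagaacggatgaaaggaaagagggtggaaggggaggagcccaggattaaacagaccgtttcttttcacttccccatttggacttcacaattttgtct
Mertk, chr2:128698665-128698914, plus strand: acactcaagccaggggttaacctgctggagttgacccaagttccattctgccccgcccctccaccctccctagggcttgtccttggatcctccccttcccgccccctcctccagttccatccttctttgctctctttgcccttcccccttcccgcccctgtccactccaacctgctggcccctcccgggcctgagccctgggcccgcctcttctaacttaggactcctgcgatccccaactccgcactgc
Cd163, chr6:124304401-124304650, plus strand: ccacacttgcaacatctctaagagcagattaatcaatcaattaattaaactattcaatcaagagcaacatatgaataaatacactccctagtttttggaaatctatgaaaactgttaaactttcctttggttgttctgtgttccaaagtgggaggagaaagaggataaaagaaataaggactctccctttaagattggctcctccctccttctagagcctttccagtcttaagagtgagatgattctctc

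Searched on both strands, GAGGAA was found before the start of 14 of the 28 members and of 25.9% of the 27025 genes in the table. It lay 30 bases before the start in C1qb, 40 in Trem2 and 164 in Ctss, counted to its farther end, and was not found in these windows of Fcgr2b, Mertk and Cd163. Of the 22 members with an entry that were higher in every UNx CrePlus library than in every UNx CreMinus library, 13 had GAGGAA. The rest of the 22, among them Mpeg1, Cx3cr1 and Lyz2, did not have it. Fcgr3 had it, although its UNx groups overlapped. The core letters of interferon response elements were found for 3 members (10.7%) and 3.46% of genes. The core letters of composite ETS and IRF sites were found for 2 members (7.14%) and 2.68% of genes. TTGCNNAA, core letters of C/EBP sites, was found for 3 members (10.7%) and 10.8% of genes, and TATAAA for 3 members (10.7%) and 14.3% of genes. None of these matches overlapped a match of another motif in a member. These letters are a description of the windows, and whether a factor binds there was not measured.

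Library totals were 18914300 to 22480895 counts in 8 libraries, whereas the other 4, all of UNx CrePlus and 1 of UNx CreMinus (replicate 1), held 41699032 to 42785476 counts. Levels are given as CPM, counts relative to the total of the library, after scaling of the library sizes, with no correction for gene length, so a level is compared between libraries and not between genes. By Xist and Ddx3y, 5 libraries were male: replicate 3 in each of the sham groups, replicate 1 in UNx CreMinus, and replicates 1 and 2 in UNx CrePlus. For sham CrePlus replicate 1, the label names its group where the others have an animal number. Kidney tissue was evident from Slc34a1, the phosphate transporter of the proximal tubule, at 5100 to 6950 CPM, and Umod, the uromodulin of the loop of Henle, at 3700 to 6360 CPM. Pkd1 was at 57.8 to 76.8 CPM in sham CreMinus, 45.9 to 64.1 CPM in sham CrePlus, 49.3 to 71.6 CPM in UNx CreMinus and 39.6 to 45.5 CPM in UNx CrePlus libraries. Its Cre difference did not pass the test in either surgery (adjusted p = 1.0 in sham and 0.482 in UNx, edgeR).

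In 3 of the 4 groups the members varied more between libraries of the same group than most genes did. Over all 12 libraries, the highest was a median of 4.59 times the lowest for the members and 1.63 times for all tested genes. This ratio exceeded 3 for 34 of 38 members and was under 2 for Csf1r, Mertk and Fcgr2b. Within the sham CreMinus group, the SD of log2 CPM had a median of 0.80 over members and 0.17 over all tested genes. The same medians were 0.66 and 0.22 in sham CrePlus, 0.55 and 0.16 in UNx CrePlus, and 0.21 and 0.19 in UNx CreMinus. UNx CreMinus was thus the group in which the members differed least between mice.

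For each library, the log2 ratio of every member to its mean in sham CreMinus was taken, and the median over the 38 members is given here as the level of the set. Sham CreMinus libraries had levels of -0.24, -0.64 and 0.83. Sham CrePlus libraries had 0.76, -0.38 and -0.23, and UNx CreMinus libraries -0.16, 0.07 and -0.11. UNx CrePlus libraries had 1.06, 1.30 and 0.22. The 2 highest libraries were UNx CrePlus replicates 2 and 1, but sham CreMinus replicate 3 and sham CrePlus replicate 1 stood above UNx CrePlus replicate 3. In RNA from whole kidney, more myeloid cells and more RNA of these genes per cell cannot be told apart. UNx CrePlus replicate 2 held the highest value of 20 members, and UNx CrePlus replicate 1 of 10. Sham CreMinus replicate 3 held that of 4 more, Ms4a7, Aif1, Lyz1 and Lyz2. The lowest value of 20 members was in sham CreMinus replicate 2 and that of 9 in sham CrePlus replicate 2.

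**Figure D1:**
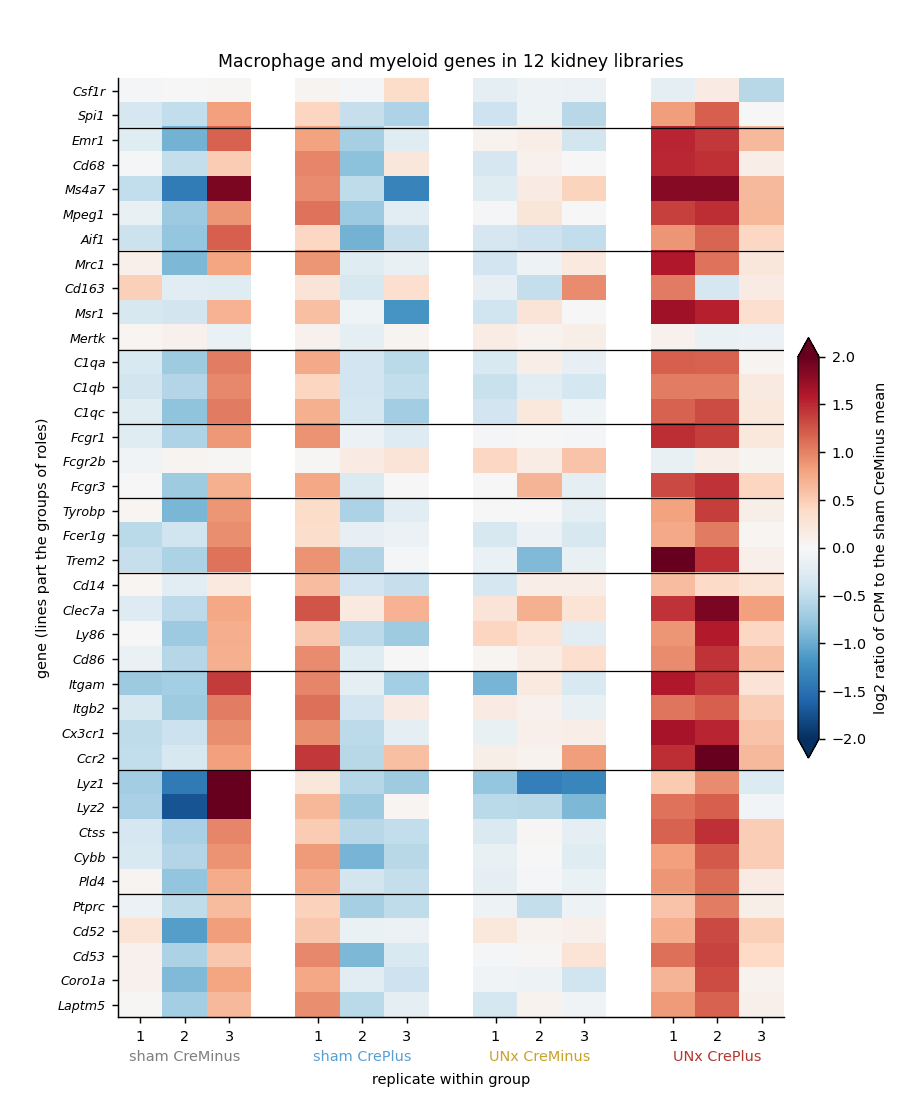
Each row is a member and each column a library, in 4 groups of 3; the colour gives the log2 ratio of its CPM to the sham CreMinus mean, and colours end at -2 and 2. Nearly whole columns share a colour, red in UNx CrePlus replicates 1 and 2, sham CreMinus replicate 3 and sham CrePlus replicate 1, while Csf1r, Mertk and Fcgr2b stay pale.

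**Figure D2:**
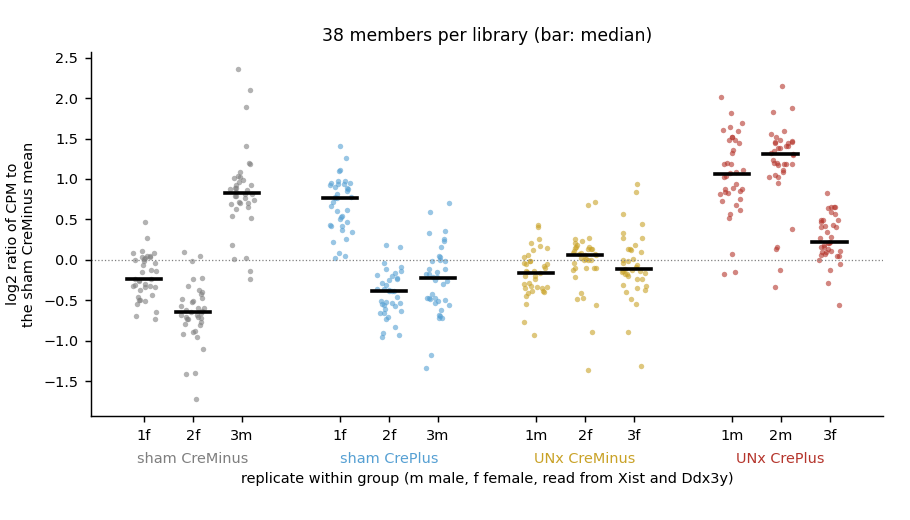
Each point is 1 of 38 members in 1 library, as the log2 ratio of its CPM to the sham CreMinus mean, and the bar is the median over members. The medians of UNx CrePlus are 1.06, 1.30 and 0.22, and those of sham CreMinus run from -0.64 to 0.83.

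The clearest difference lay between CrePlus and CreMinus mice after nephrectomy. In that comparison, 35 of 38 members had a higher mean in CrePlus (47.8% of tested genes did), with a median log2 fold change of 1.03 over members and -0.01 over all tested genes. Of the members, 21 exceeded a log2 fold change of 1, as did 2.86% of tested genes. For 30 members, every UNx CrePlus library was above every UNx CreMinus library, which held for 8.33% of tested genes. One member, Fcgr2b, lay lower without overlap, as did 7.47% of tested genes. The other 7 overlapped between the groups: Csf1r, Mertk, Cd163, C1qa, Fcgr3, Ly86 and Ccr2.

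No member passed an adjusted p of 0.05 in edgeR's quasi-likelihood test fitted to all 12 libraries, where 0.14% of tested genes were called. The adjusted p of the members ran from 0.348 to 0.974. At an unadjusted p under 0.05, 19 members were higher (6.15% of genes) and 1, Fcgr2b, was lower (4.53% of genes). DESeq2 on all 12 libraries also called 0 members (1.21% of genes), and edgeR on the UNx libraries alone called 0 (0.059% of genes). DESeq2 on the 6 UNx libraries alone called 13 members, all higher, and 1.75% of the genes with an adjusted p (1.2% higher). This setting was tried after the data were seen. The 13 were Emr1, Ms4a7, Mpeg1, Aif1, C1qb, C1qc, Itgam, Itgb2, Cx3cr1, Lyz1, Lyz2, Ctss and Cybb. The same 13 were called in the authors' deposited table for this comparison, where 1.84% of genes were called. That table covers the same 6 libraries and the authors also name DESeq2, so the match is not independent evidence. With that setting the count was 2 without UNx CrePlus replicate 1 (0.512% of genes), 6 without replicate 2 (1.05%) and 32 without replicate 3 (5.76%). It was 10, 9 and 7 without UNx CreMinus replicates 1, 2 and 3 (1.99%, 1.1% and 1.14% of genes in that order). The authors' other 5 deposited tables, some of them second versions of the same comparison, called 0 members, and 0.0337% to 0.309% of genes.

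The 3 UNx CrePlus libraries were unlike each other. Replicate 3 had the lowest value of the group for 35 of 38 members, which was so for 36.8% of all tested genes. Relative to the UNx CreMinus mean, members had a median ratio of 2.16 in replicate 1, 2.64 in replicate 2 and 1.26 in replicate 3. The ratio exceeded 2 for 25 members in replicate 1, for 33 in replicate 2 and for 0 in replicate 3. Replicate 3 was nevertheless above all UNx CreMinus libraries for 30 members (22.6% of genes). Replicates 1 and 2 were male and replicate 3 was female, whereas UNx CreMinus held 1 male and 2 females. Among female libraries alone, 1 CrePlus against 2 CreMinus after nephrectomy, the median log2 fold change of the members was 0.32, and the CrePlus library was the highest for 31 of 38 members (31.5% of genes). Among male libraries alone, 2 CrePlus against 1 CreMinus, it was 1.43. With a term for sex in the model it was 0.86, and among the 4 deep libraries alone it was 1.20. All UNx CrePlus libraries were deep, so the comparison could not be made at the lower depth.

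**Figure D3:**
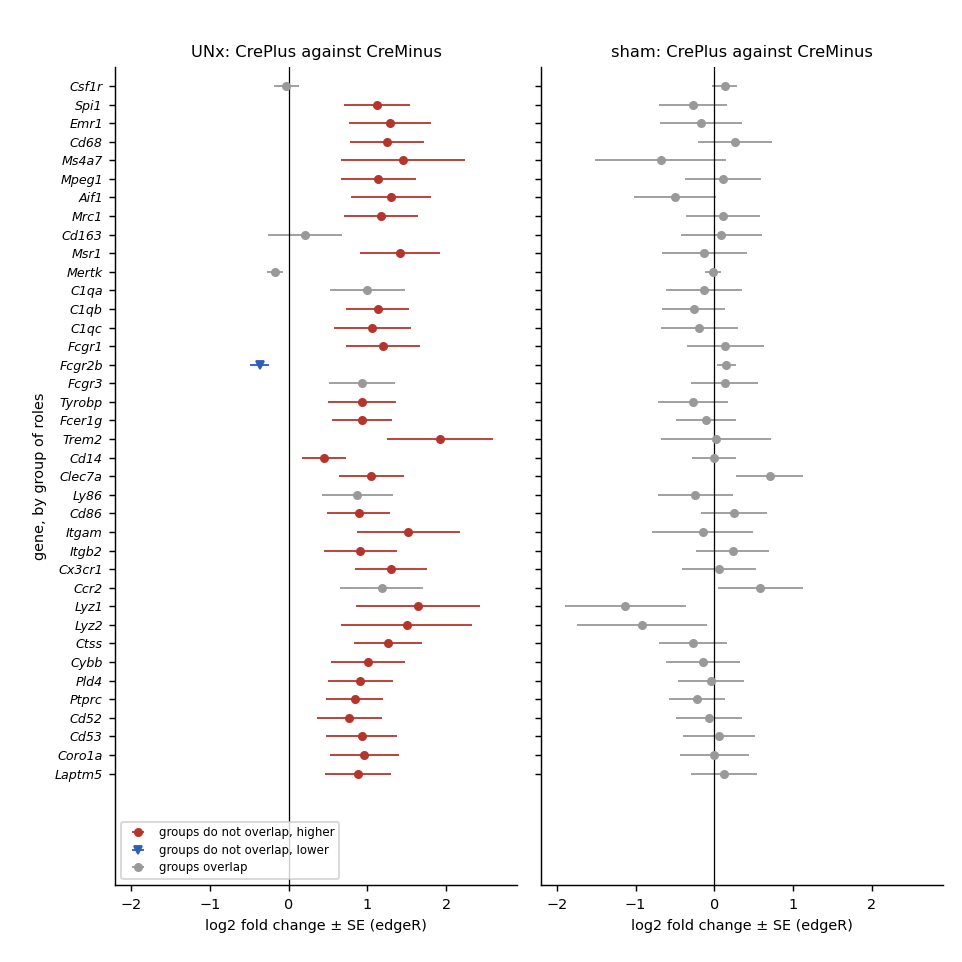
Log2 fold change with its SE for the 38 members, CrePlus against CreMinus, after nephrectomy (left) and after sham surgery (right), from the fit to 12 libraries; colour shows whether the 3 libraries of one group all lie above or below those of the other. After nephrectomy 30 members are higher and 1 is lower without overlap, and after sham surgery 0 are.

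Among the identity markers of macrophages, all 5 had a log2 fold change above 1 and no overlap after nephrectomy. Emr1, the older symbol of F4/80, a surface protein of mouse macrophages, was at 15.6, 14.5 and 8.52 CPM in UNx CrePlus and at 5.66, 5.93 and 4.15 CPM in UNx CreMinus. It was at 4.57, 2.77 and 12.4 CPM in sham CreMinus and at 9.54, 3.40 and 4.55 CPM in sham CrePlus. The 3 UNx CrePlus libraries lay above the UNx CreMinus ones, but sham CreMinus replicate 3 and sham CrePlus replicate 1 exceeded UNx CrePlus replicate 3. Its log2 fold change after nephrectomy was 1.29 ± 0.52 (SE; adjusted p = 0.43, edgeR). Mpeg1, perforin-2, a pore-forming protein of phagocytes, was at 42.2, 45.9 and 25.8 CPM in UNx CrePlus and at 15.8, 19.3 and 16.4 CPM in UNx CreMinus. In sham mice it ran from 9.80 to 35 CPM. After nephrectomy its log2 fold change was 1.14 ± 0.48 (adjusted p = 0.444). Cd68, a lysosomal glycoprotein, was at 1.25 ± 0.47, Aif1, the actin-binding IBA1, at 1.30 ± 0.51 and the membrane protein gene Ms4a7 at 1.45 ± 0.79 on the same scale.

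Csf1r and Spi1, the growth factor receptor and the transcription factor of the lineage, had unlike fold changes. Csf1r was at 69.2, 87.2 and 52.9 CPM in UNx CrePlus and at 68.2, 72.8 and 72.1 CPM in UNx CreMinus. In sham CreMinus it was at 77.4, 77.6 and 79.7 CPM, and in sham CrePlus at 81.0, 75.9 and 100 CPM. UNx CrePlus held its second highest and its lowest library, and its log2 fold change there was -0.03 ± 0.16 (adjusted p = 0.974, edgeR). Spi1, which encodes PU.1, was at 5.26, 6.74 and 2.91 CPM in UNx CrePlus against 2.19, 2.71 and 1.98 CPM in UNx CreMinus. The groups did not overlap, but replicate 3 cleared the highest UNx CreMinus library by little, with 127 counts. The log2 fold change of Spi1 was 1.12 ± 0.42 (adjusted p = 0.415), and sham libraries ran from 1.88 to 5.19 CPM.

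Of 4 scavenger receptors and receptors for dying cells, 2 were higher without overlap after nephrectomy and 2 overlapped. Mrc1, the mannose receptor CD206, was at 12, 8.34 and 4.58 CPM in UNx CrePlus and at 2.98, 3.63 and 4.46 CPM in UNx CreMinus. UNx CrePlus replicate 3 was barely above UNx CreMinus replicate 3, and the log2 fold change was 1.17 ± 0.47 (adjusted p = 0.424, edgeR). Mertk, a receptor kinase for apoptotic cells, was at 61.1, 52.9 and 53.1 CPM in UNx CrePlus and at 64.0, 61.1 and 63.1 CPM in UNx CreMinus. All 12 libraries lay between 50.4 and 64.0 CPM, and its log2 fold change was -0.17 ± 0.10 (adjusted p = 0.573). Msr1, scavenger receptor A, had a log2 fold change of 1.41 ± 0.51 and no overlap. Cd163, the haemoglobin scavenger receptor, had 0.21 ± 0.47 and overlapped, with 11 to 68 counts per library.

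The 3 chains of C1q, the recognition protein of the classical complement pathway, had close fold changes. C1qa was at 30.7, 30.4 and 14 CPM in UNx CrePlus and at 10.9, 14.8 and 12 CPM in UNx CreMinus. UNx CreMinus replicate 2 exceeded UNx CrePlus replicate 3, so the groups overlapped, and the log2 fold change was 1.00 ± 0.48 (adjusted p = 0.493, edgeR). C1qb was at 28.6, 28.6 and 16 CPM in UNx CrePlus and at 10.3, 12.1 and 11 CPM in UNx CreMinus. Its groups did not overlap, and the log2 fold change was 1.13 ± 0.40 (adjusted p = 0.388). In sham CreMinus it was at 10.8, 9.30 and 27.5 CPM, with the last close to UNx CrePlus replicates 1 and 2. C1qc had a log2 fold change of 1.06 ± 0.49 and no overlap.

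Fc gamma receptors bind immunoglobulin G, and the inhibitory one had the lower mean in UNx CrePlus, the activating ones the higher. Fcgr2b, the inhibitory receptor, was at 31.6, 38.2 and 36.1 CPM in UNx CrePlus and at 46.3, 38.5 and 51.8 CPM in UNx CreMinus. The highest UNx CrePlus library lay just under the lowest UNx CreMinus one, and sham libraries ran from 33.3 to 41.8 CPM. Its log2 fold change was -0.37 ± 0.12 (unadjusted p = 0.00864, adjusted p = 0.348, edgeR). Fcgr3, an activating receptor, was at 7.12, 7.78 and 3.82 CPM in UNx CrePlus and at 2.78, 4.55 and 2.48 CPM in UNx CreMinus. These overlapped, and the log2 fold change was 0.93 ± 0.42 (adjusted p = 0.466). Fcgr1, the high-affinity receptor, had 1.20 ± 0.47 and no overlap. Fcgr2b and Fcgr3 are related genes: of all stretches of 50 bases in annotated transcripts, 2.92% of those of Fcgr2b and 9.58% of those of Fcgr3 occur in the other gene, so their counts are uncertain.

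The ITAM adaptors had equal fold changes, and Trem2 had the largest fold change of all members. Tyrobp, which encodes DAP12, was at 9.60, 14.3 and 5.88 CPM in UNx CrePlus and at 5.40, 5.43 and 4.81 CPM in UNx CreMinus. Its log2 fold change was 0.93 ± 0.43 (adjusted p = 0.483, edgeR), without overlap. Fcer1g, the gamma chain that serves Fc receptors, was at 7.97, 9.77 and 4.85 CPM against 3.75, 4.32 and 3.75 CPM, also without overlap. Its log2 fold change was 0.93 ± 0.38 (adjusted p = 0.437). Trem2, a lipid receptor that signals through DAP12, had 79, 50 and 19 counts in UNx CrePlus and 14, 4 and 7 in UNx CreMinus. These counts equal 1.83, 1.23 and 0.435 CPM against 0.360, 0.184 and 0.355 CPM, and the highest of the UNx CreMinus libraries was close to UNx CrePlus replicate 3. The log2 fold change was 1.92 ± 0.67 (adjusted p = 0.378).

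Genes of microbe sensing and costimulation had a median log2 fold change of 0.88 after nephrectomy. Cd14, a coreceptor for bacterial lipopolysaccharide, was at 7.79, 6.62 and 6.16 CPM in UNx CrePlus and at 3.99, 5.56 and 5.57 CPM in UNx CreMinus. Its groups did not overlap and its log2 fold change was 0.45 ± 0.28 (adjusted p = 0.602, edgeR), the smallest among the members without overlap and higher. Ly86, the partner MD-1 of the receptor RP105, was at 4.03, 6.64 and 2.88 CPM in UNx CrePlus and at 2.93, 2.62 and 1.82 CPM in UNx CreMinus. These overlapped, with a log2 fold change of 0.87 ± 0.45 (adjusted p = 0.523). Clec7a, the beta-glucan receptor Dectin-1, had 1.05 ± 0.41, and Cd86, a costimulatory ligand for T cells, had 0.89 ± 0.40, both without overlap.

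Adhesion and chemokine receptors included some of the larger fold changes. Cx3cr1, the fractalkine receptor carried by resident kidney macrophages, was at 18.2, 16.6 and 8.58 CPM in UNx CrePlus and at 5.17, 6.21 and 6.33 CPM in UNx CreMinus. In sham CreMinus it was at 4.03, 4.27 and 11 CPM and in sham CrePlus at 11, 3.97 and 5.09 CPM. UNx CrePlus and UNx CreMinus did not overlap, and the log2 fold change was 1.30 ± 0.46 (adjusted p = 0.389, edgeR). Ccr2, the receptor through which monocytes are drawn from bone marrow and blood, was at 11.7, 18.6 and 6.52 CPM in UNx CrePlus and at 4.50, 4.32 and 7.45 CPM in UNx CreMinus. UNx CreMinus replicate 3 exceeded UNx CrePlus replicate 3, and the log2 fold change was 1.18 ± 0.53 (adjusted p = 0.467). Without UNx CrePlus replicate 2 it was 0.75. Itgam, the CD11b chain of complement receptor 3, had 1.52 ± 0.65, and Itgb2, its CD18 partner, had 0.91 ± 0.46, both without overlap.

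**Figure D4:**
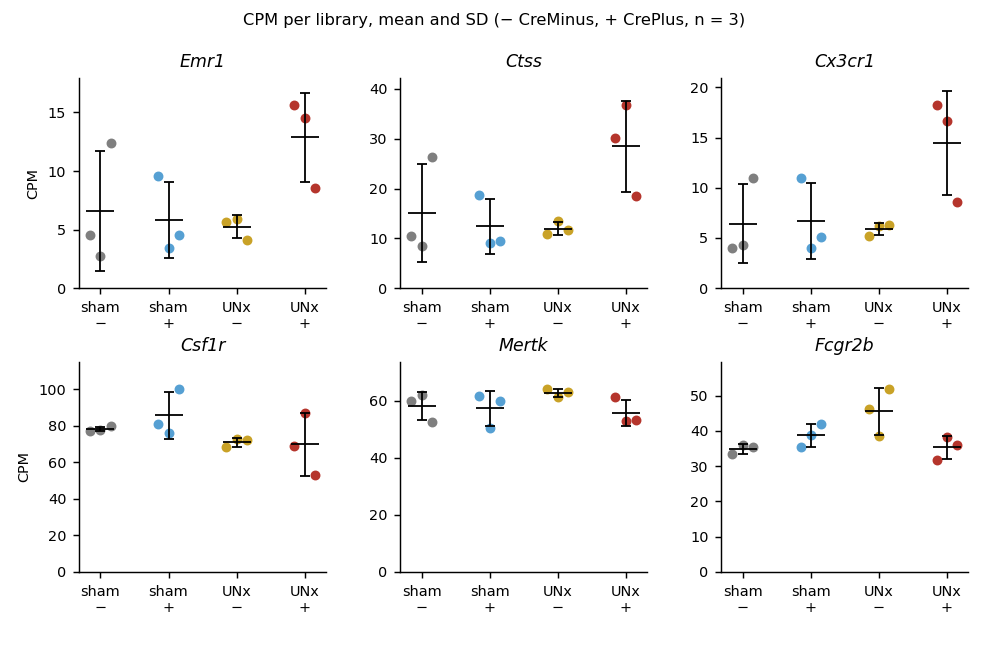
CPM of 6 members in each library (points), with mean and SD of each group of 3; each axis starts at 0. Emr1, Ctss and Cx3cr1 are highest in UNx CrePlus replicates 1 and 2 and also high in 1 library of each sham group, Csf1r and Mertk overlap between UNx CrePlus and UNx CreMinus, and Fcgr2b has its highest mean in UNx CreMinus.

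Secreted and lysosomal products included the member of smallest p among those that were higher. Ctss, the lysosomal protease cathepsin S, was at 30.1, 36.7 and 18.6 CPM in UNx CrePlus and at 10.9, 13.4 and 11.6 CPM in UNx CreMinus. It was at 10.5, 8.41 and 26.3 CPM in sham CreMinus and at 18.8, 9.04 and 9.44 CPM in sham CrePlus. UNx CrePlus replicate 3 was above the UNx CreMinus libraries but below 1 library of each sham group. The log2 fold change was 1.26 ± 0.43 (unadjusted p = 0.0141, adjusted p = 0.378, edgeR). Cybb, the catalytic subunit of the phagocyte oxidase, had 1.01 ± 0.47, and Pld4, a nuclease of endosomes, had 0.91 ± 0.41, both without overlap.

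The 2 lysozyme genes were highest in 1 sham library. Lyz2, the lysozyme of macrophages and neutrophils, was at 14.4, 6.76 and 116 CPM in sham CreMinus and at 35.8, 13.8 and 23.0 CPM in sham CrePlus. It was at 15.4, 15.3 and 12.1 CPM in UNx CreMinus and at 47.8, 51.9 and 21.8 CPM in UNx CrePlus. Sham CreMinus replicate 3 was thus more than any UNx CrePlus library, and the UNx groups did not overlap (fold change 2.84, adjusted p = 0.556, edgeR). Lyz1 was at 1.36, 0.799 and 9.87 CPM in sham CreMinus and at 2.63, 1.48 and 1.33 CPM in sham CrePlus. It was at 1.29, 0.828 and 0.861 CPM in UNx CreMinus and at 3.24, 4.38 and 1.83 CPM in UNx CrePlus, and its log2 fold change there was 1.64 ± 0.79 (adjusted p = 0.491). Lyz1 followed Lyz2 across the libraries, and 16.1% of its stretches of 50 bases occur in Lyz2 transcripts, so its counts are uncertain. The same sham library was also the highest in the neutrophil genes S100a9, at 2.85 CPM against 0.198 to 1.24 CPM elsewhere, and Csf3r, at 3.09 CPM against 0.611 to 1.72 CPM. Whether neutrophils added to its lysozyme reads was not tested.

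The 5 genes common to leukocytes are not particular to macrophages, and all 5 were higher without overlap after nephrectomy. Laptm5, a lysosomal membrane protein, was at 27.6, 34.7 and 16.3 CPM in UNx CrePlus and at 12, 16 and 14.6 CPM in UNx CreMinus. The log2 fold change of Laptm5 was 0.88 ± 0.42 (adjusted p = 0.489, edgeR). Ptprc, the leukocyte phosphatase CD45, was at 16.8, 23.1 and 12.2 CPM against 10.6, 8.09 and 10.5 CPM, with 0.84 ± 0.36 (adjusted p = 0.449). Replicate 3 was the lowest of UNx CrePlus for both genes. Cd52, Cd53 and Coro1a, a surface glycoprotein, a tetraspanin and an actin-binding protein, had log2 fold changes of 0.77, 0.93 and 0.96. Other leukocytes also express the members Itgb2, Cybb, Fcgr2b, Cd86 and Spi1.

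After sham surgery the members did not differ in one direction between CrePlus and CreMinus. Their median log2 fold change was -0.03, and 17 of 38 had a higher mean in CrePlus (50.4% of genes). No member passed the test in edgeR (0.0267% of genes did, 0.02% as higher). At an unadjusted p under 0.05 there were 0 members (2.65% of genes higher and 1.4% lower), and 0 were without overlap, as against 4.66% of genes higher and 3.49% lower. DESeq2 called 0 members too (0.285% of genes). Each group held 1 high library, and the value turned on it: without sham CreMinus replicate 3 the median was 0.51, and without sham CrePlus replicate 1 it was -0.58. Emr1 had a log2 fold change of -0.17 ± 0.52, Cd68 of 0.26 ± 0.47 and Csf1r of 0.13 ± 0.16. The members of smallest p were Clec7a at 0.70 ± 0.43, Lyz1 at -1.13 ± 0.77 and Fcgr2b at 0.15 ± 0.12 (adjusted p = 1.0 for each, edgeR). Lyz1 became 0.75 without sham CreMinus replicate 3. The authors deposited a second version of this comparison that leaves out sham CrePlus replicate 1, and it called 0 members (0.309% of genes).

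Nephrectomy in CrePlus mice, compared with CrePlus mice after sham surgery, gave a median log2 fold change of 0.86, with 35 of 38 members higher (46.3% of genes) and 9 above 1 (1.67% of genes). By edgeR and DESeq2, 0 members were called (0% of genes by edgeR, 0.0779% by DESeq2). At an unadjusted p under 0.05 in edgeR, 5 members were higher (4.15% of genes). Aif1 alone was higher without overlap (4.73% of genes), at 3.24, 3.99 and 2.33 CPM against 2.33, 0.861 and 1.24 CPM, where the 2 equal values differ beyond the printed digits. No member was lower without overlap (5.05% of genes). Without sham CrePlus replicate 1, 32 members were higher without overlap (13.6% of genes), and without UNx CrePlus replicate 3, 28 were (12.6% of genes). The smallest p were those of Ctss at 1.19 ± 0.43 (adjusted p = 0.692, edgeR), Msr1 at 1.41 ± 0.51 and Ly86 at 1.18 ± 0.46. Emr1 was at 1.14 ± 0.52, Cd68 at 0.86 ± 0.46 and Csf1r at -0.30 ± 0.16. Among female libraries the median of the members was -0.02. Of 5 fat cell genes, summed, sham CrePlus replicate 3 held 18.2 CPM and the other 11 libraries at most 1.2 CPM. The fat cell gene with enough reads for the test, Cidec, was at -3.54 ± 1.12 here (unadjusted p = 0.00923, adjusted p = 0.692, edgeR) and at 2.70 ± 1.12 for Cre after sham surgery. Without that library the median of the members was 0.68 here and 0.10 for Cre after sham surgery.

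In CreMinus mice, nephrectomy against sham surgery gave a median of -0.22, and 9 of 38 members had a higher mean (51.4% of genes). EdgeR and DESeq2 called 0 members (0% of genes by edgeR, 0.0101% by DESeq2). At an unadjusted p under 0.05 in edgeR there was 1 higher (0.668% of genes) and 1 lower (0.628% of genes). Fcgr2b was higher without overlap (2.67% of genes), with a log2 fold change of 0.38 ± 0.12 (unadjusted p = 0.00693, adjusted p = 1.0, edgeR). Csf1r was lower without overlap (2.19% of genes), at 68.2 to 72.8 CPM against 77.4 to 79.7 CPM, with -0.14 ± 0.16. Lyz1 was at -1.99 ± 0.80 (unadjusted p = 0.0303) and Lyz2 at -1.68 ± 0.84, and without sham CreMinus replicate 3 Lyz2 was at 0.43. Emr1 was at -0.32 ± 0.52 and Cd68 at -0.13 ± 0.48. The median of the members without sham CreMinus replicate 3 was 0.33, and 13 members were then higher without overlap (7.73% of genes).

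The difference of the Cre effect between surgeries was tested as an interaction. Its median over members was 1.06, with 35 of 38 above 0 (45.3% of genes), but edgeR called 0 members (0% of genes) and the adjusted p was 1.0 for all 38. At an unadjusted p under 0.05, 5 members were above 0 (1.14% of genes) and 1 below (0.708% of genes). DESeq2 called 0 members (0% of genes). The lowest p belonged to Fcgr2b, at -0.52 ± 0.16 (unadjusted p = 0.00903), which went the opposite way to Ctss at 1.53 ± 0.61 and Lyz1 at 2.77 ± 1.10. Of all tested genes, 2.15% were above 1. In female libraries alone the median was -0.37, with Emr1 at -0.06 and Cd68 at -0.51, and in male libraries alone it was 2.43. With all libraries, Emr1 was at 1.46 ± 0.73, Cd68 at 1.00 ± 0.66 and Csf1r at -0.16 ± 0.22. A larger Cre effect after nephrectomy than after sham surgery was therefore not established for any member. The Cre effect averaged over both surgeries had a median of 0.44 with 36 of 38 members above 0 (49.2% of genes). EdgeR called 0 members (0.521% of genes, 0.387% as higher), and so did DESeq2 (2.42% of genes). At an unadjusted p under 0.05, 0 members were lower (5.13% of genes) and 3 were higher (6.71% of genes): Clec7a at 0.88 ± 0.29 (adjusted p = 0.277, edgeR), Ccr2 at 0.88 ± 0.38 and Cd68 at 0.75 ± 0.33. Emr1 was at 0.56 ± 0.37 and Csf1r at 0.05 ± 0.11. These comparisons share groups, so their values are not independent of each other.

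The kinases and adaptors that act below ITAM receptors shared the direction of the members after nephrectomy. Of 15 genes, 14 had a higher mean in UNx CrePlus, with a median log2 fold change of 0.86 (-0.01 over all genes). At an unadjusted p under 0.05 in edgeR, 6 were higher (6.15% of all tested genes) and 1 was lower (4.53%). Without overlap, 7 were higher (8.33% of all tested genes), and edgeR called 0 (0.14%). Inpp5d, the inhibitory phosphatase SHIP1, was at 15.5, 14 and 9.96 CPM in UNx CrePlus and at 7.64, 7.77 and 7.6 CPM in UNx CreMinus. The log2 fold change of Inpp5d was 0.78 ± 0.25 (adjusted p = 0.367, edgeR). Nckap1l, the HEM1 subunit of the blood cell WAVE complex, was 2.16-fold higher, and Lcp2, the adaptor SLP-76, 2.17-fold. Of the 4 partners of CYBB in the phagocyte oxidase, 3 were higher, with a median of 0.69.

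Ligands and transcription factors were less uniform. Il34, a ligand of CSF1R made by tubule cells, was at 15.4, 34.3 and 9.43 CPM in UNx CrePlus and at 12.9, 7.22 and 4.66 CPM in UNx CreMinus. The groups overlapped, with a log2 fold change of 1.24 ± 0.57 (adjusted p = 0.472, edgeR) that was 0.58 without UNx CrePlus replicate 2. Csf1, the other ligand, was at 22, 18.0 and 16.5 CPM against 12, 13.9 and 16.2 CPM, with 0.43 ± 0.23 and no overlap. Of 9 myeloid transcription factors outside the members, 6 had a higher mean, with a median of 0.15. Runx1, a factor of blood cell development that other cells also express, had 1.33 ± 0.47 without overlap, and Ikzf1, the lymphoid and myeloid factor Ikaros, had 0.94 ± 0.36. Irf5, the factor in the title of the study, was at 14.9, 27.6 and 11.3 CPM in UNx CrePlus and at 15.4, 11.2 and 13.2 CPM in UNx CreMinus. These overlapped, with 0.43 ± 0.28 (adjusted p = 0.631).

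Products of activated macrophages were near the limit of detection for some genes. Of 8 genes of classical activation, 5 were tested, with a median log2 fold change of 0.24, and 3 of the 5 were higher. Nos2, the inducible nitric oxide synthase, had 0.55 ± 0.31. Of 10 genes of alternative activation, 7 were tested and all 7 had a higher mean, with a median of 1.16. After sham surgery the same list had a median of 0.91 for CrePlus against CreMinus, 5 of 7 were higher, and the interaction had a median of 0.17. Retnla, which encodes the secreted protein RELM-alpha, was at 0.394, 1.01 and 0.0229 CPM in UNx CrePlus and at 0, 0.046 and 0 CPM in UNx CreMinus. The groups overlapped. Retnla is among the 7 tested genes, but with so few reads its own fold change is not given. Ccl22, a chemokine also made by dendritic cells, was at 0.858, 1.60 and 0.389 CPM in UNx CrePlus and at 0.180, 0.184 and 0.101 CPM in UNx CreMinus. The groups did not overlap (log2 fold change 2.54 ± 0.68, unadjusted p = 0.00333, adjusted p = 0.278, edgeR). Mgl2, a lectin of macrophages and dendritic cells, had 1.16 ± 0.48 without overlap. EdgeR called 0 genes of either list.

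Markers of other leukocytes had the direction of the members in most cases. Of 12 T and NK cell genes, 8 were tested and 7 had a higher mean in UNx CrePlus. Of the 8, 6 were higher without overlap (8.33% of all tested genes), with a median log2 fold change of 1.20 and 0 called. Cd3g, a chain of the T cell receptor complex, was at 0.765, 1.35 and 0.687 CPM in UNx CrePlus and at 0.386, 0.276 and 0.253 CPM in UNx CreMinus, a log2 fold change of 1.56 ± 0.47 (adjusted p = 0.329, edgeR). Cd3e had 1.16 ± 0.40 and Cd3d 1.25 ± 0.53. The summed level of the 12 genes was 7.16 to 13.2 CPM in UNx CrePlus, 4.23 to 7.85 CPM in UNx CreMinus, 3.43 to 11.3 CPM in sham CreMinus and 4.73 to 7.21 CPM in sham CrePlus. Summed levels of 9 dendritic cell genes were 14.8 to 25.7 CPM in UNx CrePlus, 11 to 16.2 CPM in UNx CreMinus, 10.9 to 15.4 CPM in sham CreMinus and 10.3 to 22.3 CPM in sham CrePlus. Itgax, which encodes CD11c, had 1.37 ± 0.45. Of these 9 genes, 8 were tested, with a median of 0.47, 7 of 8 higher, 1 higher without overlap (8.33% of all tested genes) and 0 called. Of the 11 neutrophil genes found, 5 were tested, with a median of 0.68, 4 of 5 higher and 0 called; Mpo, Elane and Camp, the granule genes, did not have enough reads for the test. Their summed level was 6.35 to 6.72 CPM in UNx CrePlus, 4.74 to 5.98 CPM in UNx CreMinus, 4.04 to 10.7 CPM in sham CreMinus and 4.69 to 6.17 CPM in sham CrePlus. How far these cells share in the levels of the members was not tested.

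B cell, mast cell and red cell genes did not share 1 direction. Of 5 tested B and plasma cell genes, 2 were higher, with a median of -0.38. Of 2 tested mast cell genes 1 was higher, Ms4a2 at 1.73 ± 0.49. Of 2 tested red cell and platelet genes 1 was higher, Pf4 at 1.04, and the median was -0.46. Alas2, the haem synthesis enzyme of red cell precursors, was at 8.21, 2.95 and 3.64 CPM in UNx CrePlus and at 22, 23.0 and 12.7 CPM in UNx CreMinus, a log2 fold change of -1.96 ± 0.43 (adjusted p = 0.171, edgeR). In these lists edgeR called 0 genes.

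Proximal tubule genes varied little between libraries. Those of other segments were lower in some UNx CrePlus libraries, and podocyte genes were low in some libraries of sham CrePlus and of UNx CrePlus. The 5 proximal tubule genes had a median log2 fold change of -0.01, and the per-library median over them stayed between -0.11 and 0.31 in all 12 libraries. Lrp2 and Cubn, the endocytic receptors megalin and cubilin, were lower without overlap, as were 7.47% of all tested genes. They were at -0.41 ± 0.15 and -0.39 ± 0.15 (adjusted p = 0.404 for both, edgeR). The 5 genes of the loop of Henle, distal tubule and collecting duct had a median of -0.43, and Slc12a1, the sodium transporter of the thick ascending limb, was at 709, 700 and 1240 CPM in UNx CrePlus and at 1250, 1440 and 1240 CPM in UNx CreMinus. The per-library median of these 5 genes ran from -0.72 to 0.09 in UNx CrePlus. The 5 podocyte genes had a median of -0.40, and 0 of them were higher. Their per-library median ran from -0.87 to 0 in UNx CrePlus, -0.37 to 0.14 in UNx CreMinus and -0.89 to 0.16 in sham CrePlus. For Cre after sham surgery their median log2 fold change was -0.29, and 0 were higher. UNx CrePlus replicates 1 and 2, which were highest in the members, were the ones low in Slc12a1, and replicate 3 was not. In sham CreMinus, the level of the members ran from -0.64 to 0.83. The per-library median of the loop, distal tubule and collecting duct genes ran there only from -0.09 to 0.09. Whether levels of tubule genes and members are linked was not tested. EdgeR called 0 genes of these lists.

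**Figure D5:**
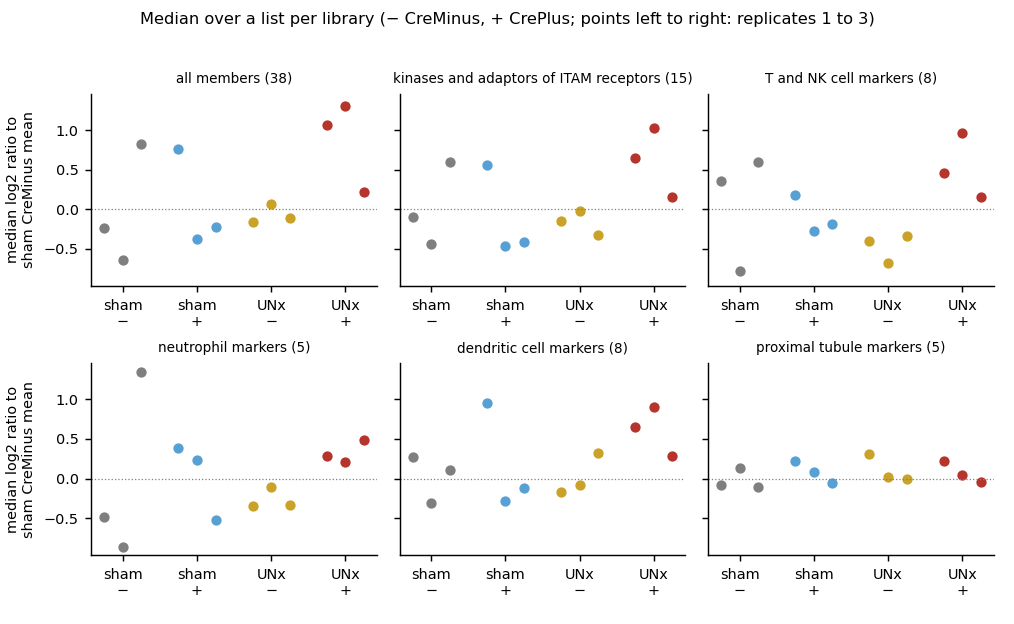
Median over a list of the log2 ratio of CPM to the sham CreMinus mean, 1 point per library, with the number of tested genes in brackets. UNx CrePlus replicate 2 is highest for the members (1.30), the ITAM signalling genes (1.02) and the T and NK cell markers (0.96), sham CreMinus replicate 3 is highest in neutrophil markers, and proximal tubule markers stay between -0.11 and 0.31.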

How the data were processed

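RNA-seq was made from kidneys of 12 mice, 3 per group, with groups taken from the labels. Per the labels' protocols, libraries were made from DNase-treated total RNA with the SMART-Seq v4 kit, which does not mark strand, so reads of overlapping genes on opposite strands cannot be told apart. The authors deposited a table of whole-number counts for every gene in every library. The tools named by the submitters' processing notes are cutadapt 1.11, FastQC 0.11.5, DESeq2 and HTSeq, and the builds GRCm38 and mm10. For the aligner, gene annotation and strandedness of counting, the sources used here give nothing. The deposited tables also hold the authors' log2 fold changes with errors, a test score (stat), p-values (raw and adjusted) and a mean signal (baseMean), per the file headers. Of these, the text uses the adjusted p-values, for the calls of members and for the share of all genes called.

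The analysis of the 12 libraries used edgeR 4.0.16 under R 4.3.3. Its filterByExpr kept 14970 of 24062 genes, library sizes were scaled by TMM, and 1 quasi-likelihood fit with 4 group means gave every comparison, with Benjamini-Hochberg adjustment over all tested genes and a threshold of 0.05. SE was taken as the absolute log2 fold change over the root of the F statistic. Log2 CPM used a prior count of 2. "Without overlap" means that all 3 libraries of a group lie on one side of all 3 of the other. Where libraries were left out, it refers to those kept. The fit was tested on simulated data.

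The 38 members, 10 groups of roles and 16 other lists (120 of 121 genes found) were chosen with earlier results of these data known, and p-values reflect only how these samples vary. Members named with all values after nephrectomy were the 2 of highest mean CPM in each group of roles plus Emr1, Csf1r, Cx3cr1, Ccr2, Lyz1 and Lyz2; in other comparisons Emr1, Cd68, Csf1r and the 3 of smallest p; from other lists up to 3 of smallest p. Trem2, Irf5, Csf3r and members named for lying without overlap were named after their values were seen. Alternatives were DESeq2 1.42.0, its size factors, no filter, fewer samples, terms for sex and depth, and leaving out each library. Counts come from PCR-amplified cDNA without molecular identifiers. Replicate numbers follow accession order, so they do not pair libraries. Positions and promoters are RefSeq's (GRCm38.p6). Over all 300 bases of each promoter entry, GAGGAA was found for 17 of 28 members and 31.3% of genes. Shared stretches of 50 bases were counted in GENCODE transcripts of GRCm38.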

Additional observations from a re-analysis of the deposited data

How the results depend on the processing

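In every comparison, 0 members were called by edgeR under TMM, DESeq2 size factors, no filter, only the groups compared, terms for sex or for sex and depth, female libraries alone, and each of 12 fits that left out 1 library. Exceptions were 2 settings added after seeing the data. DESeq2 on the groups compared alone called 13 members for Cre in UNx (1.75% of genes). It called 10, 9 and 7 without UNx CreMinus replicates 1, 2 and 3 (1.99%, 1.1% and 1.14% of genes). It called 2, 6 and 32 without UNx CrePlus replicates 1, 2 and 3 (0.512%, 1.05% and 5.76% of genes). Male libraries alone, with 1 residual degree of freedom, called 8 for Cre in sham (0.26% of genes), 22 for Cre in UNx (2.6%), 24 for UNx in CrePlus (3.53%), 6 for UNx in CreMinus (0.146%) and 21 for the interaction (0.735%). Medians over members in males were -1.15 for Cre in sham, 1.52 for UNx in CrePlus, -0.97 for UNx in CreMinus and 2.43 for the interaction; in females they were 0.68 for Cre in sham, 0.32 for Cre in UNx, -0.02 for UNx in CrePlus, 0.37 for UNx in CreMinus and -0.37 for the interaction. In females, members higher without overlap numbered 7 for Cre in sham (16.2% of genes) and 19 for UNx in CreMinus (12.4%). Males gave 1 library against 1 for these comparisons, so nearly every gene lay without overlap. There 4 members were higher (47.7% of genes) and 34 lower (52.2%) for Cre in sham. For UNx in CreMinus, 3 were higher (49.8%) and 35 lower (50.2%). For UNx in CrePlus, 34 were higher in males (38.6%), and 2 with DESeq2 (4.81%) or its size factors (5.13%). Leaving out 1 library gave 0 to 2 members higher without overlap for Cre in sham and 30 to 34 for Cre in UNx. It gave 1 to 32 for UNx in CrePlus and 1 to 13 for UNx in CreMinus. The highest counts went with 9.92%, 16.7%, 13.6% and 7.73% of genes in that order. With all libraries the shares were 4.66%, 8.33%, 4.73% and 2.67%. Medians ran from -0.58 to 0.51, 0.79 to 1.29, 0.62 to 1.27 and -0.50 to 0.33 in the same order. The median ran from 0.49 to 1.53 for the interaction and from 0.21 to 0.79 for the averaged effect. Single genes changed sign as follows. For Cre in sham, Emr1 was 0.02 with a sex term, 0.06 with sex and depth, 0.82 in females and -0.73 to 0.67 leaving out a library, Cd68 was -0.31 in males and -0.27 to 0.60, Clec7a was -0.10 in males, and Lyz1 was 0.93 in females and -1.63 to 0.75. For Cre in UNx, Csf1r was 0.12 with sex and depth, 0.05 in deep libraries, 0.21 in males and -0.22 to 0.14 leaving out a library, and Irf5 was -0.10 in females and -0.02 to 0.68. For UNx in CrePlus, Cd68 was -0.21 in females. For UNx in CreMinus, Emr1 was 0.04 with sex and depth, 0.46 in females and -0.69 to 0.52, Cd68 was 0.27, 0.29 and -0.35 to 0.17 in the same order, and Lyz2 was 0.37 in females and -2.2 to 0.43. For the averaged effect, Emr1 was -0.02 in males, and Csf1r was -0.21 in females and -0.04 to 0.14. For the interaction, Emr1 was -0.06 and Cd68 -0.51 in females, and Csf1r was 0.00 with sex and depth and -0.35 to 0.00. The 8 libraries of lower depth alone gave no value for Cre in UNx, UNx in CrePlus and the interaction, since UNx CrePlus has none. The causes of these changes were not tested. No paired analysis was possible because the labels give no replicate numbers, and those used here follow accession order. Depth limits Trem2 (4 to 79 counts per library) and Cd163 (11 to 68).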
